A study of Rattus norvegicus with 24 samples.

Results

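Genes that mark oligodendrocyte precursors or direct the oligodendrocyte lineage, 10 in all, were followed through 6 RNA-seq libraries of rat neural cells. They are the transcription factor genes Olig1, Olig2, Sox10, Nkx2-2 and Myrf, the precursor surface genes Pdgfra and Cspg4, and the committed precursor genes Gpr17, Enpp6 and Bcas1. All 10 symbols were found among the 12187 genes of the deposited expression table, and all 10 passed the filter for testing (at least 1 CPM in at least 2 libraries, which 11823 genes passed). CPM is a gene's reads scaled to a common library total, that is the share of a library taken by a gene, not corrected for gene length, so levels are compared between libraries and not between genes.

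Oligodendrocytes make the myelin of the central nervous system and arise from dividing precursors. OLIG2 and SOX10 act early and throughout the lineage, and PDGFRA receives the PDGF-A signal that keeps precursors dividing. As precursors leave the cell cycle, the receptors PDGFRA and NG2 (the product of Cspg4) are normally lost, GPR17, ENPP6 and BCAS1 appear in the intermediate stage, and MYRF switches on the myelin genes.

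The cells were of Sprague-Dawley rat origin, in 3 groups with 2 RNA-seq libraries each, one from each of the replicates 1 and 2. Group D0 held neural stem cells, VC- held differentiated cells that had no vitamin C, and VC+ held differentiated cells that had received it. The study asked how vitamin C alters methylation, enhancers and transcription as these cells differentiate. The column names of the deposited table carry a D4 label for both differentiated libraries of replicate 1 and a D5 label for both of replicate 2. No source used here says whether the replicates were separate cultures or animals, so each p-value measures the spread between these libraries, which may be technical. The other 18 samples of the series (methylation, hydroxymethylation and binding assays with their inputs) were not analysed here. Values below are in the order D0, VC-, VC+, and each difference is in log2(CPM + 0.5), which understates changes of low genes.

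The replicate sets stood apart, and several properties went with the replicate number. Reads assigned to the listed genes numbered 4811094 to 6641721 in replicate 1 and 10299321 to 13184601 in replicate 2. Summed over 10 fibroblast and meningeal markers, expression was 174, 301 and 183 CPM in replicate 1 and 9636, 6220 and 3868 CPM in replicate 2, and all 10 were higher in replicate 2 in every group. The 11 microglia and macrophage markers summed to at most 1.53 CPM in replicate 1, where 10, 11 and 10 of them had 3 reads or fewer, and to 266, 671 and 560 CPM in replicate 2. Pericyte and smooth muscle markers, of which 6 of 9 were higher in replicate 2 in every group, summed to 392, 439 and 510 CPM against 847, 424 and 553 CPM, and 7 Schwann cell and neural crest markers to 32.5 to 119 CPM against 131 to 173 CPM. Neural stem cell markers were present in every library, with sums from 3222 to 5399 CPM. Vim was the largest part of the replicate 2 sums, at 3370, 3482 and 3930 CPM. Nes was highest in stem cells, at 159, 81.6 and 35.3 CPM (replicate 1) and at 116, 53.5 and 32.5 CPM in replicate 2. Of the 8 stem cell markers, 1 was higher and 2 lower than in D0 in both replicates in VC-, and 0 and 3 in VC+. The design calls the differentiated cells neurons, and the 8 neuronal markers summed to 402 and 450 CPM in stem cells and to 392 to 446 CPM in differentiated ones. The single neuronal markers went both ways. In VC- 4 of the 8 were higher and 2 lower than in D0 in both replicates, and in VC+ 3 and 2. In the differentiated cells the effect of the D label cannot be told apart from that of the replicate. Both stem cell libraries carry a D0 label. In every group the effect of depth and of these other cell types cannot be told apart from that of the replicate, so values are given by replicate throughout. In bulk RNA, fewer cells of a type and less RNA per cell cannot be told apart either.

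**Figure D1:**
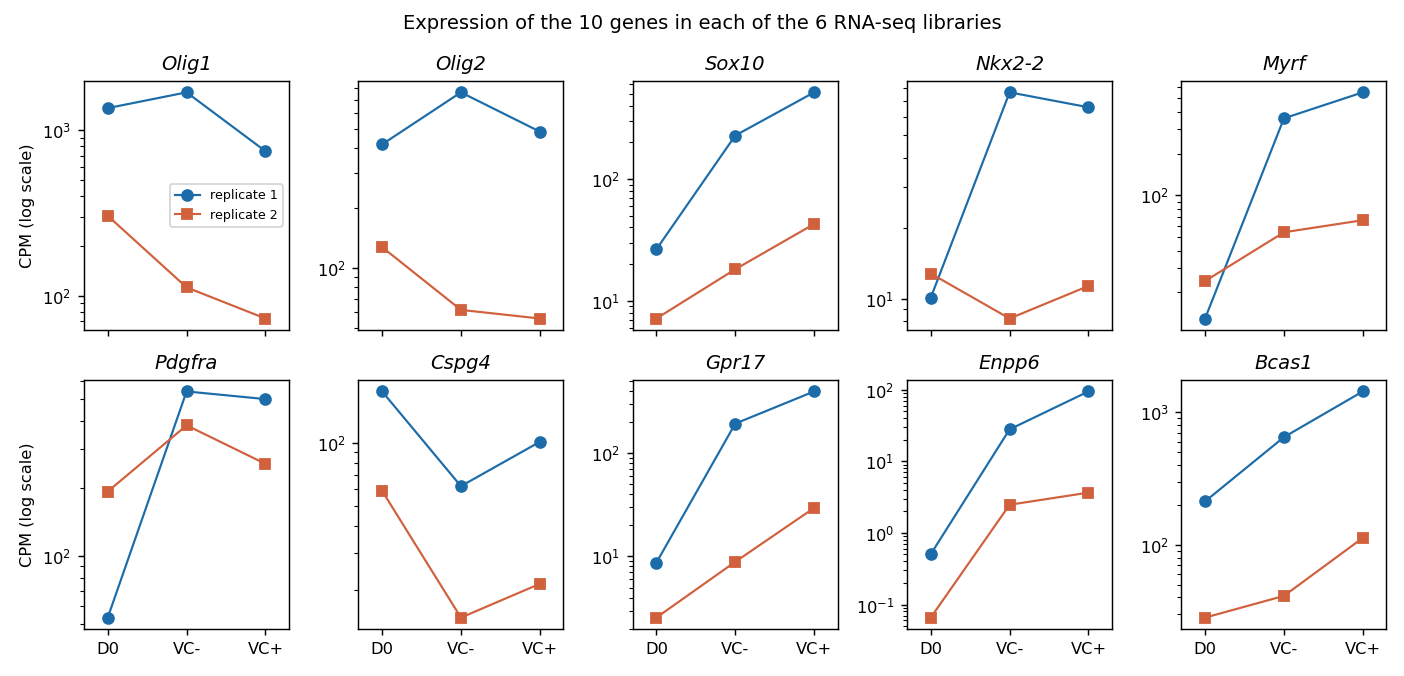
Expression of each gene in CPM (log axis, scaled separately per panel) in the groups D0, VC- and VC+; circles are the replicate 1 libraries, squares those of replicate 2, and lines only join libraries of one replicate. Sox10, Gpr17, Enpp6 and Bcas1 are lowest in D0 and highest in VC+ in both replicates, with replicate 2 lower by about an order of magnitude in the differentiated cells.

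Olig1 and Olig2, neighbouring genes for basic helix-loop-helix factors that specify the lineage, had a different order of groups in each replicate. Olig1 stood at 1358, 1691 and 745 CPM (replicate 1) and at 303, 112 and 72.6 CPM in replicate 2. Olig2 stood at 419, 765 and 485 CPM (replicate 1) and at 127, 61.6 and 55.8 CPM in replicate 2. Both genes were thus already expressed in the stem cells, were highest without vitamin C in replicate 1, and were highest in the stem cells in replicate 2. From D0 to VC-, Olig2 differed by 0.87 in replicate 1 and by -1.04 in replicate 2, and Olig1 by 0.32 and -1.43. The limma estimates over both replicates, -0.09 (SE 1.60) for Olig2 and -0.56 (SE 1.77) for Olig1, were smaller than their errors.

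Sox10, whose factor drives both precursor maintenance and myelin gene expression, was ordered the same way in both replicates, lowest in stem cells and highest with vitamin C. Its values were 26.5, 227 and 513 CPM in replicate 1 and 7.16, 18.2 and 42.7 CPM in replicate 2. Within replicates the CPM ratio of VC- to D0 was 8.57 (exact 95% interval 7.43 to 9.93, from the reads) and 2.54 (2.04 to 3.18), and that of VC+ to D0 was 19.4 (16.9 to 22.4) and 5.96 (4.88 to 7.34). These intervals, here and below, cover read counting in 1 library against 1 and not the spread between libraries. The VC+ and D0 groups did not overlap, whereas the replicate 2 value of VC- lay below the replicate 1 value of D0.

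Myrf, the gene of the membrane-anchored factor that activates myelin genes, was higher in every differentiated library than in either stem cell library. It stood at 13.0, 359 and 552 CPM (replicate 1) and at 24.2, 54.3 and 66.3 CPM in replicate 2, a ratio of VC+ to D0 of 42.5 (35.0 to 52.2) and 2.74 (2.44 to 3.08). Nkx2-2, a homeodomain factor of the precursor stage, had 10.1, 76.5 and 66.0 CPM in replicate 1 and 12.8, 8.22 and 11.3 CPM in replicate 2. Its difference from D0 to VC- was 2.86 in replicate 1 and -0.61 in replicate 2, so that Nkx2-2, like the Olig genes, had no common direction.

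Pdgfra and Cspg4, the classical surface markers of the precursor, had opposite orders between stem and differentiated cells. Pdgfra was at 53.2, 539 and 498 CPM (replicate 1) and at 193, 381 and 257 CPM in replicate 2. Its stem cell values lay below all differentiated ones, with VC- to D0 ratios of 10.1 (9.17 to 11.2) and 1.97 (1.89 to 2.06). Cspg4 was at 175, 62.1 and 101 CPM (replicate 1) and at 59.0, 14.7 and 21.3 CPM in replicate 2, highest in stem cells and lowest without vitamin C each time. The groups of Cspg4 overlapped, because its stem cell value in replicate 2 was below the differentiated values of replicate 1. Pdgfra is also a gene of fibroblasts and Cspg4 one of pericytes, whose summed markers by library are given above. In replicate 2, where the fibroblast markers were higher in each group, Pdgfra was higher in D0 only, and Cspg4 was lower in each group. The part of those cells in the levels of Pdgfra and Cspg4 was not tested.

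Gpr17, Enpp6 and Bcas1, which mark precursors committed to differentiation, spanned wide ranges across the 6 libraries. Gpr17, which encodes a G protein-coupled receptor, was at 8.70, 192 and 393 CPM (replicate 1) and at 2.56, 8.87 and 29.4 CPM in replicate 2. Both replicates had the same order, and every differentiated library was above both stem cell libraries, although VC- of replicate 2 was only just above D0 of replicate 1. Bcas1, which encodes a protein of early myelinating cells, was at 212, 649 and 1437 CPM and at 28.2, 41.1 and 113 CPM. Its order was the same, but the replicate gap was so wide that all replicate 2 values lay below the replicate 1 stem cell value.

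Enpp6, the gene of a choline phosphodiesterase of newly forming oligodendrocytes, was close to undetected in stem cells, with 4 reads (0.504 CPM) in replicate 1 and 1 read (0.0657 CPM) in replicate 2. It had 27.9 and 94.4 CPM in VC- and VC+ of replicate 1, and 2.47 and 3.65 CPM in those of replicate 2, from 46 and 78 reads. The CPM ratio of VC+ to D0 was 187 (72.9 to 688) in replicate 1 and 55.6 (9.69 to 2223) in replicate 2, wide intervals that come from the few reads in D0. A count of 0 would allow up to 3 reads, which are 0.378 CPM in the shallowest library and 0.140 CPM in the deepest.

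The start regions of Enpp6 and Gpr17 are shown because both genes were lowest in D0 and highest in VC+ in both replicates, and that of Cspg4 because it was ordered the other way between stem and differentiated cells. Each sequence runs from 250 bases before to 50 bases after the gene's start in RefSeq on GRCr8, a later build than the rn5 named for the series, and 6 of the 10 genes had an entry. Capitals mark matches, on either strand, to the E-box letters CANNTG, which basic helix-loop-helix factors such as OLIG2 can bind, and to the SOX-type letters ACAAAG or ACAATG.
Enpp6 (chr16:52026679-52026978, minus strand): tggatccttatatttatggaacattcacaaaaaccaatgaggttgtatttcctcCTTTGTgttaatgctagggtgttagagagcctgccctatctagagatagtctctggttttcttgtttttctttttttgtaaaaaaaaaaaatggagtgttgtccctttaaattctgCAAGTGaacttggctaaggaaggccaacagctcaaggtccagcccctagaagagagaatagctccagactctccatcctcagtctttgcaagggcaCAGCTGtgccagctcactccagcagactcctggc
Gpr17 (chr18:23857332-23857631, minus strand): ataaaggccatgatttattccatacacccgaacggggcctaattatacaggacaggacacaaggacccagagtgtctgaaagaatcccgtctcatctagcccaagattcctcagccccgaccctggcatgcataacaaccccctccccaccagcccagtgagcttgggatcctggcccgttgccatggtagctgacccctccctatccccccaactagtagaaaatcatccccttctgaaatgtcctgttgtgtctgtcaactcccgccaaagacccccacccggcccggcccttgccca
Cspg4 (chr8:66160692-66160991, plus strand): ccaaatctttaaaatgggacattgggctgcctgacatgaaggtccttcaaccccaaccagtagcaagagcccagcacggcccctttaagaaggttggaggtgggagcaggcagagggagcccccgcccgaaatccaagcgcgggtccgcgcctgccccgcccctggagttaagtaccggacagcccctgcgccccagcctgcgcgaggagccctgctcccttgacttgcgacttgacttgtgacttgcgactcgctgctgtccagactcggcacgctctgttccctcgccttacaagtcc
The Enpp6 window held 2 CANNTG matches and 1 ACAAAG match, with no CpG dinucleotide and 43.3% G and C. The Gpr17 window held 8 CpGs and 56% G and C, the Cspg4 window 18 CpGs and 62%, and none of the 3 motifs occurred in either. Over the 9212 regions of listed genes the medians were 21 CpGs and 61% G and C. Among the other 3 genes with an entry, Pdgfra had 1 CANNTG match, and Olig2 and Nkx2-2 had none. CANNTG occurred in 71.6% of all 27457 start regions of this length, ACAAAG in 18.3% and ACAATG in 13.0%. Among the 9212 regions of listed genes the shares were 62.7%, 13.2% and 7.16%. A match describes the letters only.

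**Figure D2:**
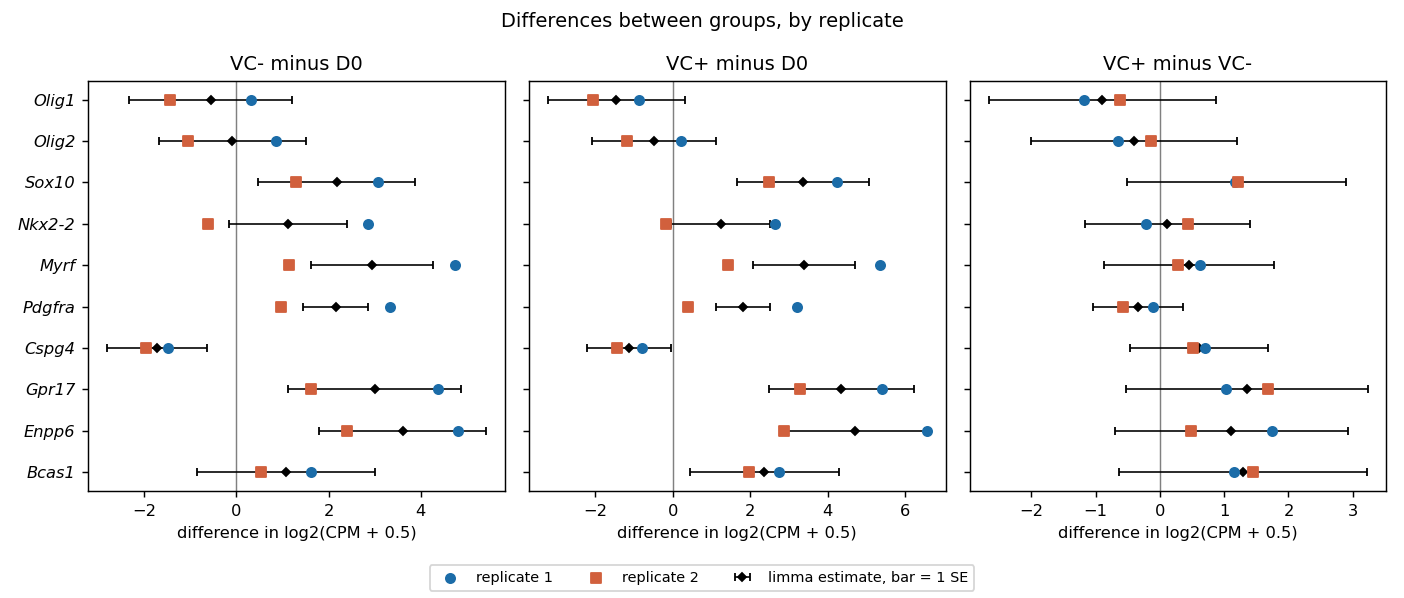
Differences in log2(CPM + 0.5) for VC- minus D0, VC+ minus D0 and VC+ minus VC-; circles and squares are replicates 1 and 2, diamonds the limma estimate over both, and bars 1 SE (2 libraries per group). In the left and middle panels 6 genes lie to the right of 0 in both replicates, and Cspg4 to the left; the x axes differ between panels.

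Between stem cells and cells differentiated without vitamin C, 6 of the 10 genes were higher in both replicates (Sox10, Myrf, Pdgfra, Gpr17, Enpp6 and Bcas1), Cspg4 was lower in both, and Olig1, Olig2 and Nkx2-2 differed in sign. Over all genes tested, 28.6% were higher in both replicates and 29.5% lower. The groups did not overlap for 4 members, all higher in VC- (Myrf, Pdgfra, Gpr17 and Enpp6), against 13.8% of all genes. The median difference of the members was 1.64, with 2.97 in replicate 1 and 0.76 in replicate 2, against 0.01 over all genes tested. The largest estimates were 3.61 (SE 1.81) for Enpp6, 3.0 (SE 1.88) for Gpr17 and 2.94 (SE 1.32) for Myrf. None of the 10 passed limma after Benjamini-Hochberg adjustment (adjusted p 1.00 for each). Across the whole table limma called 0% of genes, and 382 had p under 0.05 before adjustment, of which Pdgfra (p 0.0276, limma) was the one member. On recovered reads edgeR called 0 genes and DESeq2 called 63 (0.549%), no member among them. Without replicate 1 of the VC- cells the members' median was -0.035, and without replicate 2 of those cells it was 2.88.

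With vitamin C the same 6 genes were higher than in stem cells in both replicates, against 28.6% of all genes, and Olig1 and Cspg4 were lower in both, against 29.0%. This comparison shares the D0 libraries with the preceding one, and is not independent of it. The groups did not overlap for 5 members, which were the former 4 and Sox10, against 14.2% of all genes. The median difference was 2.09, with 2.98 in replicate 1 and 0.92 in replicate 2, against 0.01 over all genes. Without VC+ replicate 1 the members' median was 0.93, and without VC+ replicate 2 it was 3.34. Enpp6 differed by 4.72 (SE 1.81), Gpr17 by 4.35 (SE 1.88), Myrf by 3.40 (SE 1.32), Sox10 by 3.37 (SE 1.7) and Bcas1 by 2.37 (SE 1.93). Limma called 0% of genes, and 507 had p under 0.05 before adjustment, including 3 members (Enpp6, Pdgfra and Myrf; adjusted p 1.00 for each). DESeq2 on recovered reads called 133 genes (1.09%) and 1 member, Enpp6 (adjusted p 0.00560), whose stem cell level rests on 5 reads in all, and edgeR called 0 genes.

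Between differentiated cells with and without vitamin C, the 3 committed precursor genes and Sox10 were higher with vitamin C in both replicates, and Olig1, Olig2 and Pdgfra were lower, but no member passed a test. Sox10 was higher by 1.18 in replicate 1 and 1.21 in replicate 2, Bcas1 by 1.15 and 1.44, Gpr17 by 1.03 and 1.68, and Enpp6 by 1.74 and 0.48. As CPM ratios of VC+ to VC- these were 2.26 and 2.35 for Sox10, 2.21 and 2.74 for Bcas1, 2.05 and 3.32 for Gpr17, and 3.38 and 1.48 for Enpp6. Every one of these 8 ratios had a counting interval above 1, the nearest being that of Enpp6 in replicate 2 (1.01 to 2.18). Myrf (0.62 and 0.29) and Cspg4 (0.70 and 0.52) were also higher in both. Olig1 differed by -1.18 and -0.62, Olig2 by -0.66 and -0.14, Pdgfra by -0.11 and -0.57, and Nkx2-2 by -0.21 and 0.44. In sum 6 members were higher in both replicates, 3 lower and 1 mixed, against 30.0% of all genes higher in both and 26.4% lower.

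For every member the 2 values with vitamin C overlapped those without it, because the replicates lay so far apart; over all genes the groups did not overlap for 16.0%. The members' median difference was 0.53 (0.66 and 0.46 by replicate) against 0.02 over all genes. Limma called 0% of genes, and 62 had p under 0.05 before adjustment, none of them a member. It gave Sox10 1.19 (SE 1.7), Gpr17 1.35 (SE 1.88), Bcas1 1.29 (SE 1.93), Enpp6 1.11 (SE 1.81) and Olig1 -0.90 (SE 1.77), each with adjusted p 1.00. The vitamin C libraries are paired by replicate number and D label, and with a replicate term the errors shrank to 0.49 for Sox10, 0.68 for Gpr17, 0.29 for Bcas1, 0.90 for Enpp6 and 0.45 for Olig1. With that term limma again called 0 of 11823 genes (0%). Before adjustment 404 of the 11823 had p under 0.05, among them Bcas1 (p 0.00723, limma) and Cspg4 (p 0.0363, limma). DESeq2 on recovered reads called 6 genes (0.0492%) without and 32 (0.263%) with the replicate term, and no member in either; Bcas1 came nearest at an adjusted p of 0.0954 (DESeq2, replicate term). Leaving out a library unbalances the replicates, and without VC+ replicate 1 the members' median was -0.94, without VC- replicate 1 it was 1.75, without VC- replicate 2 it was -0.76 and without VC+ replicate 2 it was 1.85. Astrocyte markers, summed over 9 genes, had 2271 CPM in VC- against 6277 CPM in VC+ (replicate 1), and 4483 against 10186 CPM (replicate 2), with 7 of 9 higher in both; their part in the members' differences was not tested.

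**Figure D3:**
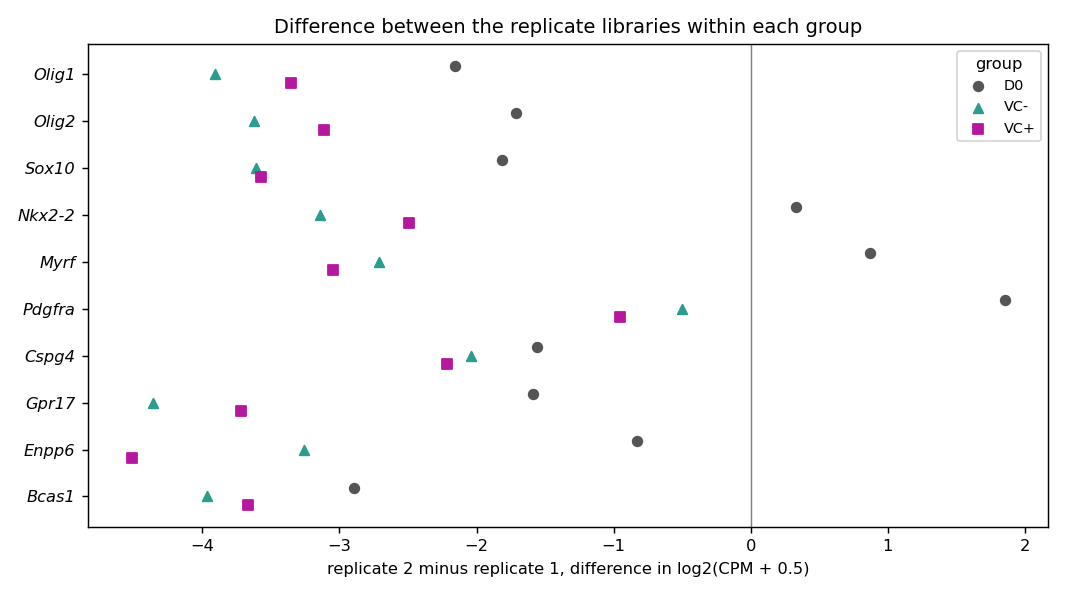
Replicate 2 minus replicate 1 in log2(CPM + 0.5) for each gene within D0 (circles), VC- (triangles) and VC+ (squares). In all 10 genes both differentiated groups lie to the left of the stem cells, and every differentiated value is below 0.

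The replicates differed widely in these genes. In both VC- and VC+ all 10 genes were lower in replicate 2, and in the stem cells 7 were lower while Nkx2-2, Myrf and Pdgfra were higher. In VC- the CPM of replicate 1 exceeded that of replicate 2 by 21.7 times for Gpr17 (18.4 to 25.6), 15.8 times for Bcas1 (14.6 to 17.1), 15.1 times for Olig1 (14.4 to 15.8), 12.5 times for Sox10 (11.1 to 14.1) and 12.4 times for Olig2 (11.7 to 13.2). Pdgfra had the smallest gap, 1.41 times (1.36 to 1.47). The median of replicate 2 minus replicate 1 over the members was -1.57 in D0, -3.43 in VC- and -3.23 in VC+, against 0.02, -0.03 and -0.01 over all genes tested. For all 10 members the difference was lower in both differentiated groups than in the stem cells, which held for 39.5% of all genes. That contrast of replicate differences between groups has no replication here and was not tested.

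In a limma fit with groups and replicate, the replicate term called 7 of the 10 members lower in replicate 2 and none higher, against 7.70% of all genes lower and 17.4% higher. The 7 fell by 3.51 (SE 0.24, adjusted p 0.00324) for Bcas1, 3.22 (SE 0.55, 0.0190) for Gpr17, 3.14 (SE 0.36, 0.00794) for Olig1, 3.0 (SE 0.40, 0.0104) for Sox10, 2.87 (SE 0.73, 0.0480) for Enpp6, 2.82 (SE 0.39, 0.0113) for Olig2 and 1.94 (SE 0.17, 0.00472) for Cspg4. The test did not call Myrf (-1.63, SE 0.81, adjusted p 0.189), Nkx2-2 (-1.77, SE 0.70, 0.121) or Pdgfra (0.13, SE 0.57, 0.875). DESeq2 with the same terms called 9 members lower, all but Pdgfra, against 7.79% of all genes, and edgeR called 7 lower, against 6.72%. The number of limma calls depended on which libraries were kept, both among the members and over all genes. That the oligodendrocyte lineage was lower in replicate 2 was known from these data when the genes were chosen, so the 7 calls give values per gene and are no independent support.

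**Figure D4:**
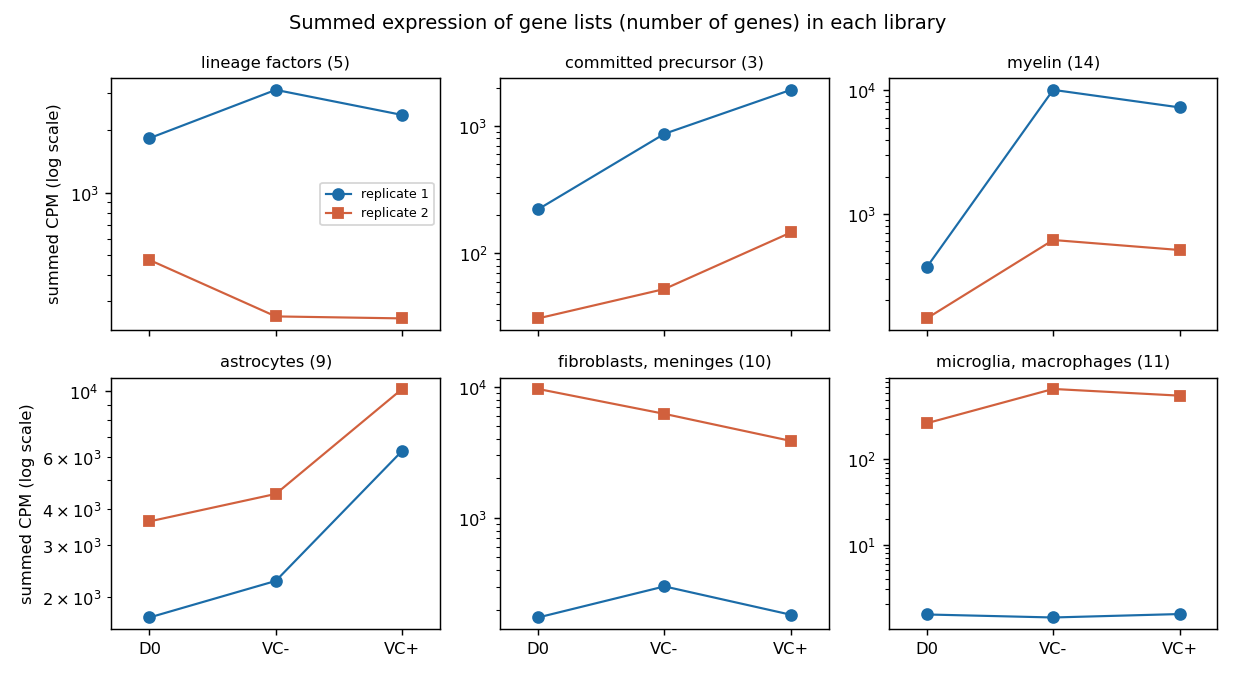
Summed CPM (log axis, scaled per panel) of 6 gene lists in each library, circles for replicate 1 and squares for replicate 2. The 5 lineage factors and 3 committed precursor genes are higher in replicate 1, as are the 14 myelin genes, while the fibroblast and microglia lists are higher in replicate 2 and the astrocyte list is higher in VC+ than in VC- in both.

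Most other genes of the precursor stage were also higher with vitamin C in both replicates, without passing limma. Of 13 such genes 11 were higher in both and none was lower in both, against 30.0% and 26.4% of all genes, with a median of 0.64 (0.57 and 0.94 by replicate) against 0.02 over all genes; 0 passed limma, with or without the replicate term. The 9 astrocyte markers had a median of 1.06 in the same comparison, with 7 higher in both replicates, and their part in this list was not tested. Bcan, a matrix proteoglycan that astrocytes express too, was at 101, 511 and 1495 CPM (replicate 1) and at 142, 91.8 and 247 CPM in replicate 2. Ptprz1, a receptor phosphatase of precursors and stem cells, was highest in stem cells, at 3292, 1522 and 1984 CPM and at 2490, 600.4 and 634 CPM. Neu4, a sialidase gene, was the one gene of this list called for vitamin C by DESeq2 with the replicate term (adjusted p 0.0179), at 0.252, 1.40 and 11.8 CPM and at 0, 0.107 and 3.75 CPM. Of 12 newly formed oligodendrocyte genes 7 were higher with vitamin C in both replicates and 2 lower (median 0.52, 0.77 and 0.23 by replicate), with Nfasc, an axon-glial adhesion gene, at 60.9, 796 and 1817 CPM and at 164, 139.7 and 189.9 CPM. Sirt2, a deacetylase gene of myelinating cells, had 116, 644 and 1029 CPM and 106, 244 and 290 CPM. Of 13 myelin genes tested, 4 were higher and 5 lower in both replicates; their median was -0.42 (-0.73 and 0.10). Mobp, a myelin protein gene, was called lower with vitamin C by DESeq2 with the replicate term (adjusted p 1.52e-14), at 0.252, 167 and 2.77 CPM and at 0, 3.98 and 0 CPM. Cnp differed by 0.37 and 0.50 and Mbp by -0.73 and -0.79.

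Signals and regulators around the members showed no shared direction under vitamin C. Of 20 ligands and receptors that act on precursors, 8 were higher and 6 lower in both replicates (median 0.04), and of 10 regulators that hold back differentiation 2 were higher and 2 lower (median -0.14). Pdgfa, the ligand of PDGFRA, was at 4.92, 30.2 and 47.0 CPM (replicate 1) and at 7.29, 11.0 and 21.5 CPM in replicate 2, so that ligand and receptor were both lowest in stem cells. Fgfr1, an FGF receptor gene, was highest in stem cells (455, 259 and 218 CPM, and 944, 552 and 434 CPM), and so was Notch1, the receptor that restrains precursors (716, 525 and 597 CPM, and 664, 258 and 242 CPM). Thra, a thyroid hormone receptor gene, was lowest there (204, 455 and 466 CPM, and 146, 214 and 218 CPM), as was Id2, an inhibitor of helix-loop-helix factors (29.4, 61.0 and 44.0 CPM, and 62.7, 76.1 and 90.8 CPM). Among 10 further regulators favouring the lineage, 3 were higher and 2 lower with vitamin C in both replicates (median -0.05), and the chromatin remodeller gene Smarca4 stood at 316, 336 and 252 CPM and at 243, 163 and 168 CPM. None of the genes in these lists passed limma in any of the 3 group comparisons.

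Genes of these lists were called in both directions between the replicates. In limma with groups and replicate, the precursor genes Matn4, Pcdh15 and Rlbp1 were lower in replicate 2, as were the regulators Sox8, Tcf7l2 and Myt1, the repressors Hes5 and Sox6, the receptors Erbb4 and Thra, the newly formed oligodendrocyte genes Itpr2, Fyn and Lims2, and myelin genes including Mbp, Cnp, Mag, Mog and Aspa. Higher in replicate 2 were Nkx6-1, a ventral homeodomain gene, the differentiation inhibitors Hes1, Id2, Id4 and Gpr37, the signalling genes Fgfr1, Shh, Smo, Igf1, Nrg1, Jag1 and Cxcr4, and Kif19 and Bmp7. Shh, the ventralising ligand that induces Olig2 in the embryo, stood at 2.90, 2.21 and 0.765 CPM (replicate 1) and at 117, 11.1 and 4.54 CPM in replicate 2, higher in replicate 2 in each group, where Olig2 was lower. Within replicate 2 both genes were highest in D0 and lowest in VC+. In replicate 1 Shh had that order too, but Olig2 was lowest in D0 (419, 765 and 485 CPM). A relation between the levels of Shh and Olig2 was not tested. Called lower and higher in replicate 2 were 3 and 0 of 13 precursor genes, 3 and 1 of 10 favouring regulators, 2 and 4 of 10 regulators holding back differentiation, 2 and 7 of 20 ligands and receptors, 3 and 2 of 12 newly formed oligodendrocyte genes, and 6 and 0 of 13 myelin genes. Over all genes the shares were 7.70% lower and 17.4% higher, and differences between lists were not tested.

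For each of Olig2, Sox10 and Pdgfra, the 3 nearest genes were found by the smallest root mean square distance between centred log2 profiles over the 6 libraries, among 9807 other genes with a mean of at least 5 CPM. Closest to Olig2 were Sox8 (distance 0.14), Miat (0.24) and Pcdh11x (0.25), while Olig1 lay at 0.43. Sox8, which encodes the SOX factor related to SOX10, was at 114, 263 and 155 CPM (replicate 1) and at 36.0, 19.1 and 19.9 CPM in replicate 2, and so had the same order as Olig2 in replicate 1. Closest to Sox10 were Lims2 (0.37), Chn2 (0.45) and Ppp1r16b (0.47), and the members Gpr17 (0.49) and Bcas1 (0.60) followed a similar course, whereas Olig2 lay at 1.59. Closest to Pdgfra were Lrfn2 (0.13), Dpysl3 (0.17) and Srcin1 (0.22), and its nearest member was Nkx2-2 at 1.07. By this measure the members did not share 1 profile. The 6 libraries share 2 replicate sets, so these distances describe the profiles and carry no test.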

How the data were processed

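RNA from 6 libraries was sequenced after preparation with a TruSeq kit, per the labels' protocols. The authors deposited CPM values per gene; the submitters' processing notes name STAR 2.5.1, edgeR 3.12.1 and the rn5 build among others without roles, and the counter, annotation and gene filter are not given in the sources used here. Every CPM value was a whole multiple of the value of 1 read in its library, within a relative tolerance of 1e-06, and dividing by it gave whole reads for 100% of values. The listed genes hold 60.2% to 67.7% of the reads the authors scaled by.

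Differences were tested with limma 3.58.1 (trend, two-sided, R 4.3.3) on log2(CPM + 0.5), 3 groups in 1 fit, over the 11823 genes that reached 1 CPM in 2 or more libraries, with Benjamini-Hochberg adjustment and a threshold of 0.05. The replicate term was tested in a fit with groups and replicate. Counting intervals on ratios are exact conditional binomial at 95%. The edgeR 4.0.16 quasi-likelihood test and DESeq2 1.42.0 were run on recovered reads. The code was tested on simulated counts. VC- and VC+ share replicate numbers and D labels, and their deviations from group means correlated at 0.914 across genes, so a fit with the replicate block is given beside the vitamin C comparison.

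The 10 members and all gene lists were chosen with earlier results of these data known. Named genes were all members, the 2 of highest mean CPM and any passing limma in each lineage list, and the 3 nearest profiles to Olig2, Sox10 and Pdgfra; Neu4, Mobp and Pdgfa were chosen after their values were seen, and 1 gene that the rule names is not reported here. Start regions are RefSeq sequences on GRCr8, matched by symbol. Alternatives were pseudocounts of 0.1 and 2, no filter, 5 CPM in 2 libraries, median-of-ratios and TMM rescaling, the replicate block, the count tests and leaving out each library.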

Additional observations from a re-analysis of the deposited data

How the results depend on the processing

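In the 3 group comparisons limma called no gene under any pseudocount, filter, rescaling, replicate block or left-out library, and the members' calls came from the count tests alone. DESeq2 called 6 genes for vitamin C, 63 for VC- against D0 and 133 for VC+ against D0, the last with 1 member. With the replicate block it called 32, 455 and 768 genes, with 0, 5 and 7 members, and edgeR with the block called 0, 0 and 11. The D0 libraries share a replicate number but no D label with the differentiated ones (deviations from group means correlated at 0.730 with VC- and 0.688 with VC+). In the DESeq2 fit with the block, which called 3.88% of genes for VC- and 6.43% for VC+, the members called for VC- were Sox10, Myrf, Gpr17 and Enpp6 (higher) and Cspg4 (lower), and for VC+ the same genes with Bcas1 (higher) and Olig1 (lower). Limma with the block gave 7 of the 10 members p under 0.05 before adjustment for VC- against D0, among 1550 of 11823 genes. For VC+ against D0 the counts were 7 and 1885, and no gene passed adjustment in either.

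On reads without the replicate term, some small estimates changed sign. Nkx2-2 under vitamin C was -0.13 with edgeR and -0.14 with DESeq2. For VC- against D0, Olig1 was 0.078 and 0.10 and Olig2 0.56 and 0.58. On the same reads with the replicate term, the signs were those of limma. Nkx2-2 was then 0.0050 and 0.0086, Olig1 -0.61 and -0.60, and Olig2 -0.16 and -0.14.

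Leaving out 1 library at a time leaves a group with 1 library, assumed to vary like the others. The vitamin C differences then ranged from -2.86 to 1.05 for Olig1, -2.21 to 1.41 for Olig2, -0.61 to 3.0 for Sox10, -1.46 to 1.69 for Nkx2-2, -1.07 to 1.98 for Myrf, -0.82 to 0.14 for Pdgfra, -0.50 to 1.72 for Cspg4, -0.83 to 3.53 for Gpr17, -1.15 to 3.37 for Enpp6 and -0.69 to 3.28 for Bcas1, and the members' median from -0.94 to 1.85. For VC- against D0 the ranges were -2.51 to 1.40 for Olig1, -1.90 to 1.73 for Olig2, -0.45 to 2.70 for Nkx2-2, -0.91 to 3.06 for Bcas1 and -0.035 to 2.88 for the median. For VC+ against D0 they were -3.14 to 0.22 for Olig1, -2.04 to 1.07 for Olig2, -0.0050 to 2.49 for Nkx2-2 and 0.93 to 3.34 for the median. In the replicate comparison Pdgfra ranged from -0.73 to 0.68, genes called from 0 to 5049 and members called from 0 to 10. Enpp6 lost its replicate call with a pseudocount of 2 (adjusted p 0.0790, limma) and with the 5 CPM filter (0.0512); the cause was not tested.

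Depth limits the stem cell values of genes with few reads there, such as Enpp6, Neu4 and Mobp, each with 4 reads or fewer per library.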
